A study of Sus scrofa with 4 samples.

Results

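Filamins and refilins were followed as 4 genes, RFLNA, RFLNB, FLNA and FLNC, found by symbol among the 22309 genes measured in pig (Sus scrofa) ovaries. They were picked because, between the genotypes, RFLNA was higher and FLNA lower in leptin overexpression. The contrast between genotypes therefore chose the set, and its values are given here as a description, without a test. All 4 genes passed the filter on low counts, which kept 13937 genes.

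Poly(A)-selected RNA was sequenced from 4 ovary samples, all in diestrus, in groups of 2. The leptin overexpression samples came from sows of the second filial generation of a transgenic line, bred from re-cloned males of 1 transgenic pig mated to Duroc/Landrace/Yorkshire sows. The WT samples came from control sows. The promoter of the transgene, the age of the sows and the breeding of the WT sows were not given in the sources used here. Whether the samples within a group were separate animals is not stated, so the spread within a group, and with it every p-value, may reflect technical variation alone.

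Filamins are large dimeric proteins that join actin filaments into networks and tie them to integrins and other membrane proteins through a chain of immunoglobulin-like repeats. FLNA is made in most cells, with much of it in smooth muscle and vessels, and FLNC mainly in skeletal and heart muscle. Refilins are small proteins that bind filamins; in rodent cells they were found to turn filamin from an organiser of networks into one of actin bundles, and in mice they act in growing cartilage.

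Total counts per library were 16493113 to 16797511. LEP, the overexpressed gene, had 55 and 124 counts in leptin overexpression and 0 and 3 counts in WT. Across genes, which are not independent replicates, the log2 CPM of leptin overexpression replicate 1 and WT replicate 2 had a Pearson's r of 0.941, above the 0.917 of the WT libraries with each other. TMM factors, which scale the libraries to each other, were 0.925 and 0.809 in leptin overexpression and 1.34 and 0.998 in WT. WT replicate 1 had an r of 0.856 to 0.917 with the other libraries, and leptin overexpression replicate 2 an r of 0.856 to 0.936. The lowest value, 0.856, was that of these libraries with each other. The fold changes are therefore also given without each library. Luteal cell markers such as STAR and CYP11A1 were abundant in all 4 libraries. Skeletal muscle markers were scarce apart from the glycogen enzyme PYGM, with ACTA1 and TNNT3 at 0 counts in every library.

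RFLNA (ENSSSCG00000035760), refilin A, was the member with the largest difference. It was measured at 281 and 616 CPM in leptin overexpression, against 8.71 and 49.2 CPM in WT. CPM is the count scaled to a common library size after TMM scaling. Both leptin overexpression libraries lay above both WT libraries. The mean was 448 ± 236 CPM in leptin overexpression and 28.9 ± 28.6 CPM in WT (SD, n = 2 each), a ratio of means of 15.5. The gap between the nearest libraries, leptin overexpression replicate 1 and WT replicate 2, was 5.72-fold, and that between the farthest was 70.7-fold. The libraries of WT differed 5.65-fold from each other and those of leptin overexpression 2.19-fold. In whole tissue, as here, fewer cells of a type and less RNA per cell cannot be told apart.

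The fitted log2 fold change of RFLNA was 3.96, rank 30 from the top among the 13937 genes tested. Leaving out WT replicate 1 gave 3.16 and leaving out WT replicate 2 gave 5.65, so the size of the difference depended on which WT library was kept. Leaving out a leptin overexpression library gave 4.42 (replicate 1) and 3.29 (replicate 2). In the deposited FPKM values, which are scaled to transcript length, RFLNA stood at 118 and 226 in leptin overexpression and at 5.15 and 22.1 in WT. By FPKM it ranked 534 and 278 among all genes in the leptin overexpression libraries, against 8285 and 2698 in the WT libraries.

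RFLNB (ENSSSCG00000038618), refilin B, the relative of RFLNA, did not show this pattern. It was measured at 5.22 and 4.26 CPM in leptin overexpression, against 3.86 and 7.70 CPM in WT, from 80 and 57 counts in leptin overexpression and 85 and 129 counts in WT. The groups overlapped on this scale, WT replicate 1 being the lowest library of all and WT replicate 2 the highest. The mean was 4.74 ± 0.68 CPM in leptin overexpression and 5.78 ± 2.72 CPM in WT (SD, n = 2 each). The fitted log2 fold change was -0.28. Without WT replicate 2 it was 0.27, the opposite sign. On the FPKM scale, with no TMM factors, RFLNB was at 4.57 and 3.26 in leptin overexpression and at 4.88 and 7.27 in WT, where the groups did not overlap. The difference of RFLNB thus rested on the scaling and on single libraries.

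The balance between the refilins differed between the genotypes, as a restatement of the values above. RFLNA made up 96.3% and 98.6% of the summed refilin FPKM in leptin overexpression, against 51.3% and 75.2% in WT. Per length, RFLNA was 25.7 and 69.2 times RFLNB in leptin overexpression. In WT replicate 2 the ratio was 3.04, and in WT replicate 1 the refilins were nearly level, with a ratio of 1.06.

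**Figure D1:**
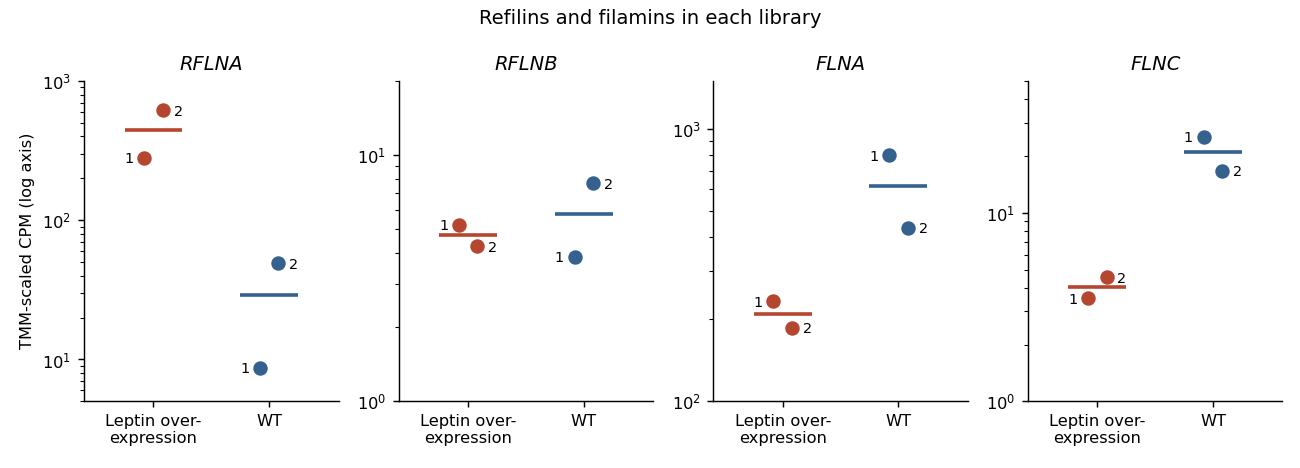
TMM-scaled CPM on log axes for each member, with leptin overexpression and WT side by side, 1 point per library marked with its replicate number, and a bar at the mean of each group. RFLNA is at 281 and 616 CPM in leptin overexpression and at 8.71 and 49.2 CPM in WT, while FLNA and FLNC are lower in both leptin overexpression libraries and RFLNB overlaps between the groups.

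FLNA (ENSSSCG00000033299), filamin A, ran the other way. It was measured at 233 and 187 CPM in leptin overexpression, against 801 and 434 CPM in WT. Both leptin overexpression libraries lay below both WT libraries, and WT replicate 1 was the highest. The mean was 209.7 ± 32.8 CPM in leptin overexpression and 617 ± 259 CPM in WT (SD, n = 2 each). The nearest libraries were 1.86-fold apart, about the 1.85-fold difference between the WT libraries themselves, and the farthest 4.29-fold.

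The fitted log2 fold change of FLNA was -1.56, with 5.69% of tested genes lower still. Leaving out leptin overexpression replicate 1 or 2 gave -1.71 and -1.39, and leaving out WT replicate 1 or 2 gave -1.07 and -1.96. FLNA was the only member whose deposited estimated count was not whole in some libraries (3 of 4, beyond a tolerance of 0.005), as happens when ambiguous reads are divided among genes.

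FLNC (ENSSSCG00000016578), filamin C, was less abundant than FLNA, and its ratio between genotypes was larger than that of FLNA. It was measured at 3.53 and 4.56 CPM in leptin overexpression, against 25.2 and 16.8 CPM in WT, from 54 and 61 counts in leptin overexpression and 556 and 281 counts in WT. Both leptin overexpression libraries lay below both WT libraries, with 3.68-fold between the nearest. The mean was 4.04 ± 0.73 CPM in leptin overexpression and 21.0 ± 5.98 CPM in WT (SD, n = 2 each), and the fitted log2 fold change was -2.38. Leaving out each library in turn gave -2.67 to -2.08, the narrowest range among the members. In the RefSeq annotation of Sscrofa11.1, 1 lncRNA gene, LOC110257581, overlaps FLNC. The labels name no strand setting for the counts, so some FLNC reads may belong to that lncRNA gene.

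Across the set, 1 member was higher in both leptin overexpression libraries, a pattern shown by 22.2% of all genes tested, and 2 members were lower in both, shown by 22.9%. This contrast chose the members, so nothing is read from these counts.

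**Figure D2:**
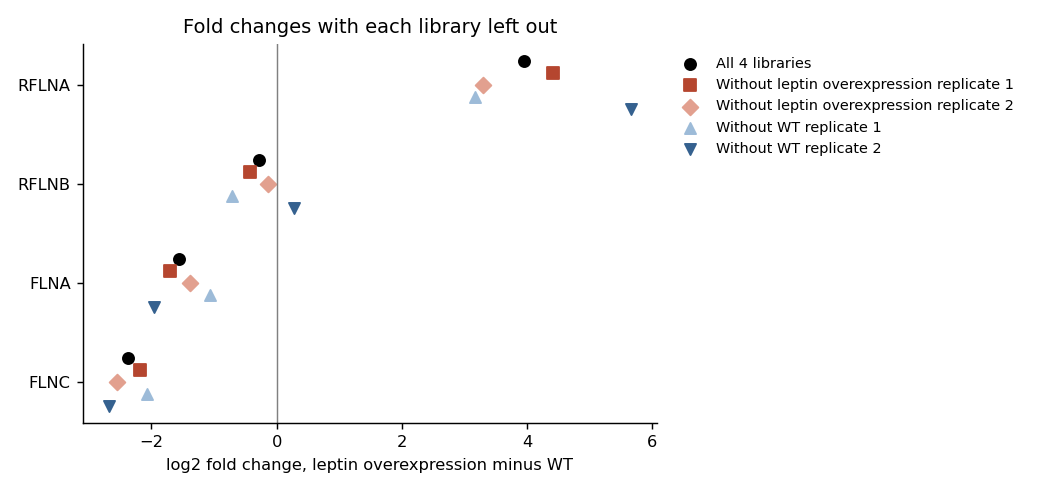
Log2 fold change (leptin overexpression minus WT) of each member with all 4 libraries and with each library left out in turn. RFLNA runs from 3.16 to 5.65, FLNA from -1.96 to -1.07 and FLNC from -2.67 to -2.08, while RFLNB crosses 0.

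Between the filamins followed here, FLNA was the more abundant per length in every library. FLNA was at 23.0 and 16.3 FPKM in leptin overexpression, against 115 and 47.0 FPKM in WT. FLNC was at 0.36 and 0.40 FPKM in leptin overexpression, against 3.70 and 1.84 FPKM in WT. FLNA was thus 63.9 and 40.8 times FLNC in leptin overexpression, against 31.1 and 25.6 times in WT.

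The order of FLNA and RFLNA differed between the groups. Per length, RFLNA was 5.12 and 13.8 times FLNA in leptin overexpression, against 0.0447 and 0.470 times in WT. RFLNA RNA was the more abundant in both leptin overexpression libraries, and FLNA RNA in both WT libraries. This ratio restates the values that chose the genes.

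**Figure D3:**
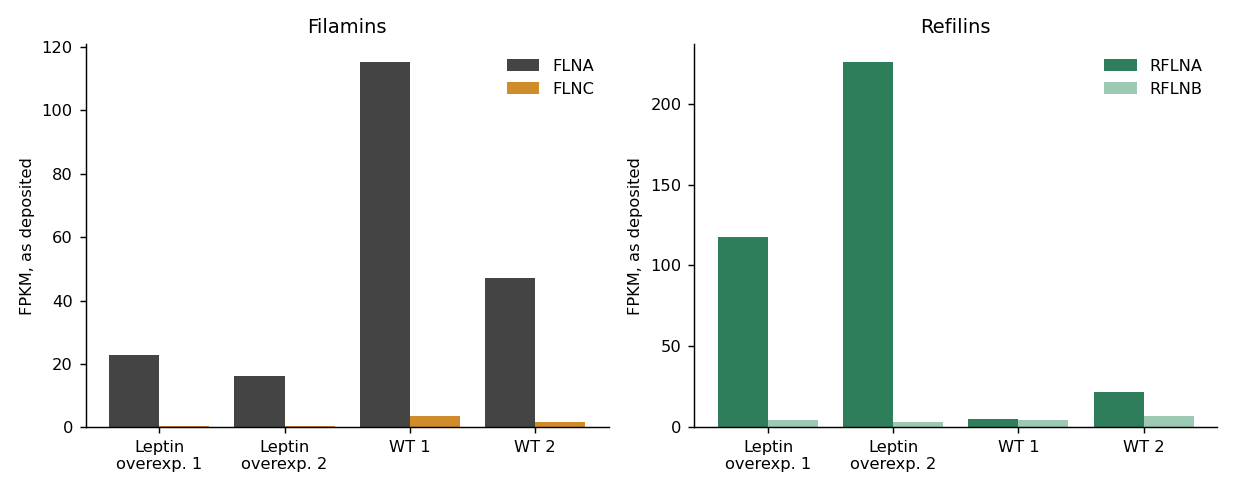
Deposited FPKM of the filamins FLNA and FLNC (left) and of the refilins (right) in each library, leptin overexpression replicates first and WT replicates after them. FLNA is at 23.0 and 16.3 FPKM in leptin overexpression and at 115 and 47.0 FPKM in WT, and RFLNA reaches 118 and 226 FPKM in leptin overexpression.

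Filamins are abundant in contractile cells, so the smooth muscle markers were read beside them. All 10 markers were tested, and the fitted log2 fold changes were below 0 for all 10, against 50.7% of all genes tested, with 8 lower in both leptin overexpression libraries, against 22.9% of all genes. By edgeR's quasi-likelihood test 0 of the 10 passed and 3 were lower at an unadjusted p under 0.05, against 5.32% of all genes. DESeq2 called 3 lower (MYH11, DES and KCNMB1) and 0 higher, against 1.47% and 0.718% of all genes. The summed level of the list was 693 and 1082 CPM in leptin overexpression, against 1518 and 1529 CPM in WT, with 0 markers at 0 counts in any library. MYH11, the smooth muscle myosin heavy chain, was at 69.9 and 107 CPM in leptin overexpression, against 421 and 231 CPM in WT (edgeR adjusted p = 0.263; DESeq2 0.00600). ACTA2, smooth muscle actin, was at 232 and 367 CPM in leptin overexpression, against 385 and 418 CPM in WT.

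Set against that sum, FLNA came to 33.6% and 17.2% of the smooth muscle marker CPM in leptin overexpression, against 52.7% and 28.4% in WT, so the groups overlapped. FLNC came to 0.509% and 0.421% of it in leptin overexpression, against 1.66% and 1.10% in WT, without overlap. RFLNA came to 40.6% and 56.9% in leptin overexpression, against 0.574% and 3.22% in WT. Set against the luteal sum, RFLNA was at 0.685% and 1.37% in leptin overexpression and 0.0439% and 0.112% in WT. RFLNA in both leptin overexpression libraries was above both WT libraries against each of the 7 marker sums used, those of smooth muscle, pericytes, endothelium, stroma, granulosa, luteal and theca cells. FLNA overlapped against the smooth muscle, endothelium and theca sums.

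Markers of other cells also differed between the libraries. The summed level of oviduct and ciliated epithelium markers was 38.7 and 29.2 CPM in leptin overexpression, against 472 and 244 CPM in WT, and that of surface epithelium and mesothelium 24.2 and 86.2 CPM in leptin overexpression, against 199 and 113 CPM in WT. Oocyte markers summed to 21.7 and 24.8 CPM in leptin overexpression, against 144 and 23.8 CPM in WT. Of the 9 matched oviduct and ciliated markers, 4 and 2 were at 0 counts in the leptin overexpression libraries and 0 in the WT libraries. T, NK and B cell markers summed to 30.0 and 35.5 CPM in leptin overexpression and 58.3 and 85.2 CPM in WT. EdgeR called 0 of the genes of these lists. DESeq2 called lower 3 of 8 tested oviduct and ciliated markers and 4 of 6 surface epithelium and mesothelium markers. It called lower 0 of 6 oocyte markers and 1 of 8 T, NK and B cell markers, against 1.47% of all genes. The part of any of these cells in the values of FLNA and FLNC was not tested.

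The remaining marker sums separated the groups less, or went another way. Luteal markers were at 41082 and 45028 CPM in leptin overexpression, against 19823 and 43764 CPM in WT, so that WT replicate 1, the library lowest in RFLNA and highest in FLNA, was also the lowest in luteal markers. Stromal fibroblast markers were at 11977 and 7638 CPM in leptin overexpression and 7030.5 and 6586 CPM in WT. Granulosa markers were at 1702 and 1562 CPM in leptin overexpression, against 1590 and 1580 CPM in WT, and theca markers at 858 and 387 CPM in leptin overexpression, against 201 and 1751 CPM in WT. The part of these cells in the values of RFLNA and FLNA was not tested.

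Vessel markers gave no common order, while macrophage and platelet markers were lower in both leptin overexpression libraries. Endothelial markers summed to 1030 and 499.5 CPM in leptin overexpression, against 814 and 1503 CPM in WT, and pericyte markers to 742 and 416 CPM in leptin overexpression, against 598 and 807 CPM in WT. Lymphatic markers summed to 110.5 and 109.5 CPM in leptin overexpression, against 58.0 and 151 CPM in WT. The groups overlapped for each of these 3 lists. Macrophage markers were at 235 and 219 CPM in leptin overexpression and 274 and 302 CPM in WT. Platelet markers were at 47.4 and 33.02 CPM in leptin overexpression and 51.4 and 50.1 CPM in WT, and skeletal muscle markers at 129 and 86.0 CPM in leptin overexpression, against 123 and 148 CPM in WT. Markers of neurons and glia were at 128 and 164 CPM in leptin overexpression, against 43.0 and 67.3 CPM in WT.

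**Figure D4:**
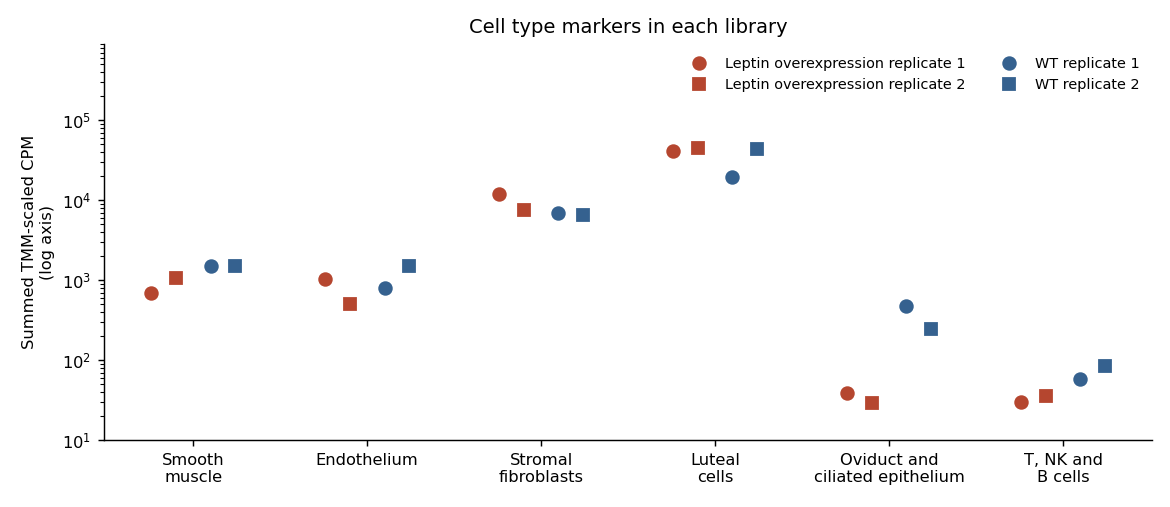
Summed TMM-scaled CPM (log axis) of 6 cell type marker lists in each library, with leptin overexpression (red) left of WT (blue) and the replicate shown by the symbol. Smooth muscle, oviduct and ciliated epithelium and T, NK and B cell markers are lower in both leptin overexpression libraries, and luteal markers are lowest in WT replicate 1, at 19823 CPM.

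The other genes of the pathway were read from 7 lists of filamin partners, actin cytoskeleton, adhesion and signalling genes, with 160 distinct genes tested. Over all genes, edgeR's quasi-likelihood test called 4 of 13937 higher in leptin overexpression (0.0287%; STMN2, NEFL, LGI2 and LOC100520618) and 0 lower (0%). Of the 160 genes, 0 were called in either direction by edgeR. DESeq2, which called 0.718% of all genes higher and 1.47% lower, called 1 of them higher and 2 lower, the lower ones being ITGB2 and ITGB4. None of the members is on these lists.

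Among 34 tested filamin partners and genes of filamin turnover, the median log2 fold change was -0.19, against -0.01 over all genes tested. At an unadjusted edgeR p under 0.05, 0 were higher and 2 lower, where 4.04% of all genes were higher and 5.32% lower. Those were ITGB2 and CAPN3. ITGB2, the integrin beta chain of leukocytes, was at 11.9 and 6.20 CPM in leptin overexpression, against 50.9 and 21.2 CPM in WT (edgeR adjusted p = 0.279; DESeq2 0.0350). CAPN3, a calpain known from muscle, was at 3.26 and 1.79 CPM in leptin overexpression, against 13.6 and 3.64 CPM in WT (edgeR adjusted p = 0.518).

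None of the most abundant partners passed. VIM, the intermediate filament protein vimentin, was at 2437 and 2133 CPM in leptin overexpression, against 2319 and 2015 CPM in WT. HSPA8, a chaperone, was at 1501 and 2086 CPM in leptin overexpression, against 1688 and 1537 CPM in WT. ITGB1, the integrin beta chain shared by many filamin-linked receptors, was at 448 and 753 CPM in leptin overexpression, against 358 and 446 CPM in WT (log2 fold change 0.58; edgeR adjusted p = 0.678). LARP4, an RNA-binding protein that binds filamin A, was at 35.8 and 65.5 CPM in leptin overexpression, against 28.9 and 32.3 CPM in WT (edgeR adjusted p = 0.591).

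Of 27 other actin crosslinkers tested, 12 had a fitted log2 fold change above 0 and 15 below (median -0.13), where 50.7% of all genes were below. The plastins, which bundle actin, had no common direction. PLS3 was at 123 and 224 CPM in leptin overexpression, against 100.2 and 96.3 CPM in WT. PLS1 was at 37.5 and 79.9 CPM in leptin overexpression, against 29.4 and 31.1 CPM in WT. LCP1, the plastin of leukocytes, was at 26.7 and 19.1 CPM in leptin overexpression, against 84.2 and 35.0 CPM in WT (edgeR adjusted p = 0.422). It was the 1 gene of the list with an unadjusted p under 0.05, where 5.32% of all genes were lower. CNN1, the calponin of smooth muscle, was at 6.79 and 21.4 CPM in leptin overexpression, against 23.5 and 48.3 CPM in WT (adjusted p = 0.539).

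Of the 4 most abundant crosslinkers, 3 overlapped between the groups, and EZR was higher in both leptin overexpression libraries. SPTBN1, a spectrin, was at 1263 and 1023 CPM in leptin overexpression, against 1130 and 1368 CPM in WT. FSCN1, fascin, which packs actin into tight bundles, was at 506 and 307 CPM in leptin overexpression, against 258 and 1170.0 CPM in WT, so that the WT libraries lay on either side of both. EZR, ezrin, which links actin to the membrane, was at 591 and 536 CPM in leptin overexpression, against 434 and 464 CPM in WT (edgeR adjusted p = 0.803). MSN, its relative, was at 431 and 321 CPM in leptin overexpression, against 362 and 465 CPM in WT.

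Actins, non-muscle myosins and tropomyosins leaned the other way, with 18 of 28 fitted values above 0 and a median of 0.15. Over all genes tested, 50.7% were below 0. ACTG1, cytoplasmic gamma actin, was at 2455 and 2225 CPM in leptin overexpression, against 2563 and 2012 CPM in WT. ACTB, beta actin, was at 941 and 748 CPM in leptin overexpression, against 1029 and 1119 CPM in WT (edgeR adjusted p = 0.810, and 0.986 for ACTG1). ACTR2, a subunit of the actin-branching complex, was at 227 and 547 CPM in leptin overexpression, against 187 and 185 CPM in WT. ACTR3, its partner, was at 858 and 1406 CPM in leptin overexpression, against 942 and 686 CPM in WT. The groups overlapped for ACTG1 and ACTR3, and none of these 4 genes passed. CAPZA1, a capping protein, was at 134 and 299.9 CPM in leptin overexpression, against 110.5 and 107 CPM in WT. TMSB10, which binds actin monomers, was at 1016 and 1191 CPM in leptin overexpression, against 519 and 908 CPM in WT. GSN, the actin-severing gelsolin, was at 246 and 177 CPM in leptin overexpression, against 477 and 306 CPM in WT. CAPZA1 and TMSB10 were thus higher and GSN lower in both leptin overexpression libraries, with none past the threshold. MYH14, a non-muscle myosin, was at 4.96 and 2.84 CPM in leptin overexpression, against 22.2 and 8.53 CPM in WT (edgeR adjusted p = 0.340). It was the 1 gene of the list with an unadjusted p under 0.05, where 5.32% of all genes were lower.

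The focal adhesion list, where filamins meet integrins, had 22 of 30 fitted values below 0 and a median of -0.29. Over all genes tested, 50.7% were below 0 and the median was -0.01. At an unadjusted edgeR p under 0.05, 4 of the list were lower (ITGB4, FERMT3, FERMT1 and TNS3) and 0 higher. The shares over all genes tested were 5.32% lower and 4.04% higher. ITGB4, the integrin beta chain of epithelial hemidesmosomes, was at 6.72 and 5.38 CPM in leptin overexpression, against 19.7 and 18.7 CPM in WT (edgeR adjusted p = 0.264; DESeq2 0.0428). FERMT3, the kindlin of blood cells, was at 5.29 and 4.56 CPM in leptin overexpression, against 18.5 and 12.8 CPM in WT (edgeR adjusted p = 0.281). Epithelial and lymphocyte marker sums, given above, were lower in the same libraries, and their part in these values was not tested. ENAH and ITGB8 were higher in both leptin overexpression libraries, ENAH at 169.8 and 197 CPM in leptin overexpression, against 129 and 143 CPM in WT.

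None of the 4 most abundant adhesion genes passed, and VCL and ITGA5 overlapped between the groups. TLN1, talin, which activates integrins and competes with filamin for their tails, was at 349 and 184 CPM in leptin overexpression, against 414 and 381 CPM in WT (edgeR adjusted p = 0.678). VCL, vinculin, was at 174 and 153 CPM in leptin overexpression, against 164 and 218 CPM in WT. ITGA5, the fibronectin receptor chain, was at 278 and 158 CPM in leptin overexpression, against 195 and 239.8 CPM in WT. TNS1, a tensin, was at 215 and 72.2 CPM in leptin overexpression, against 253 and 292 CPM in WT, with leptin overexpression replicate 2 far below the other libraries.

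SRF, the factor that drives many actin and muscle genes, was read with its cofactors and targets. Their median log2 fold change was -0.10 over 17 tested genes, with 0 at an unadjusted p under 0.05. Of these 17 genes, 7 were lower in both leptin overexpression libraries, against 22.9% of all genes tested. Those higher in both numbered 0, against 22.2% of all genes tested. The cofactor MRTFA was at 13.6 and 4.11 CPM in leptin overexpression, against 19.1 and 18.6 CPM in WT. LMOD1, a leiomodin of smooth muscle, was at 12.5 and 9.79 CPM in leptin overexpression, against 21.5 and 18.4 CPM in WT. Neither passed (edgeR adjusted p = 0.573 and 0.564). FOS and EGR1, which respond within minutes to many stimuli, overlapped between the groups. FOS was at 613 and 19.8 CPM in leptin overexpression, against 22.1 and 219.8 CPM in WT. EGR1 was at 385 and 26.5 CPM in leptin overexpression, against 36.3 and 142 CPM in WT. Both were highest in leptin overexpression replicate 1 and low in leptin overexpression replicate 2 and WT replicate 1. PDLIM5 was at 692 and 453 CPM in leptin overexpression, against 189 and 757 CPM in WT. FHL1 was at 113 and 128 CPM in leptin overexpression, against 124 and 117 CPM in WT, also with overlap.

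Genes of the striated muscle Z-disc, the site of FLNC in muscle, were sparse. Of 16 matched genes 9 were tested, and 8 of the 9 had values below 0 (median -0.72), against 50.7% of all genes tested. Of the 9, 0 had an unadjusted p under 0.05. CRYAB, a small heat shock protein, was at 4.77 and 5.45 CPM in leptin overexpression, against 7.39 and 9.61 CPM in WT. NRAP was at 2.09 and 6.65 CPM in leptin overexpression, against 7.58 and 6.80 CPM in WT. PDLIM3 and NEBL, the most abundant of them, overlapped between the groups, PDLIM3 at 20.7 and 32.1 CPM in leptin overexpression, against 12.2 and 54.8 CPM in WT. NEBL was at 15.1 and 25.2 CPM in leptin overexpression, against 18.2 and 13.5 CPM in WT.

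TGF-beta signalling was read because filamins and refilins have been tied to it. Of 15 tested genes, 7 had values above 0 and 8 below (median -0.07), where 50.7% of all genes were below. LTBP1, which holds TGF-beta in the matrix, was at 993 and 1014 CPM in leptin overexpression, against 380.3 and 874 CPM in WT. The receptor TGFBR2 and the transducer SMAD3 overlapped between the groups, TGFBR2 at 275 and 139 CPM in leptin overexpression, against 163 and 304 CPM in WT. SMAD3 was at 117 and 63.5 CPM in leptin overexpression, against 71.4 and 119.8 CPM in WT. Neither differed between the groups by more than it did within them. The repressors SKIL and SKI stood in opposite order, SKIL at 20.5 and 41.8 CPM in leptin overexpression, against 18.3 and 19.0 CPM in WT. SKI was at 16.0 and 7.69 CPM in leptin overexpression, against 22.4 and 19.8 CPM in WT, and neither passed. TGFB3, a ligand, was at 17.1 and 12.5 CPM in leptin overexpression, against 22.1 and 22.1 CPM in WT.

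**Figure D5:**
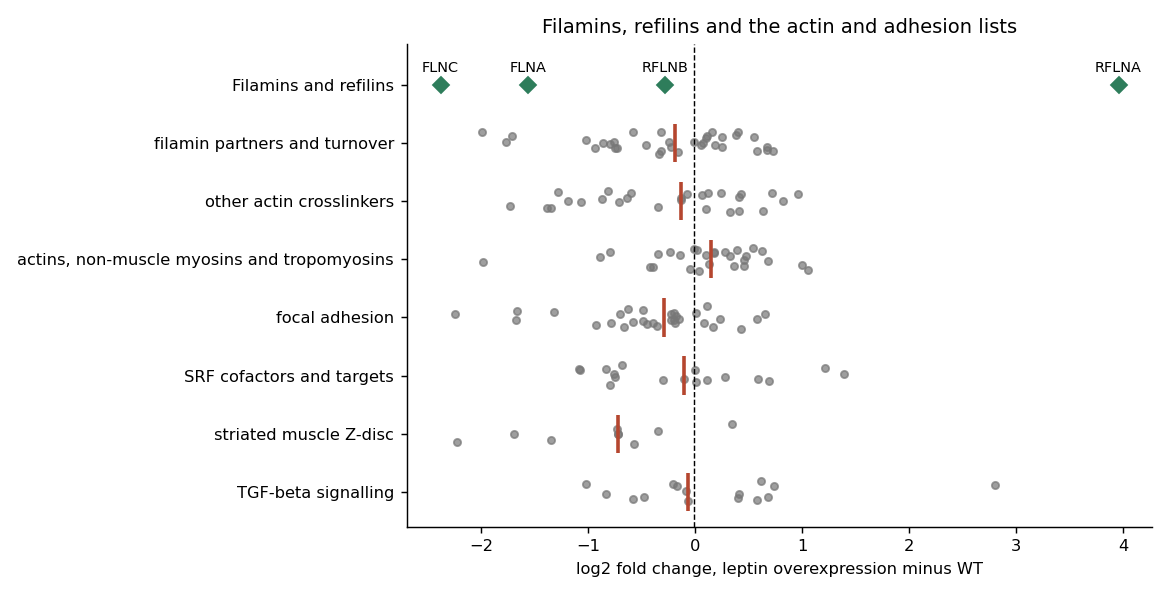
Log2 fold change (leptin overexpression minus WT) of the members (diamonds, top) and of every tested gene of 7 lists (points), with a red bar at the median of each list and a dashed line at the median of all genes tested (-0.01). RFLNA lies right of every listed gene and FLNC left of every one.

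The genes with the nearest pattern were found by the distance between log2 CPM profiles over the 4 libraries, each centred on its own mean, among tested genes with a symbol and a mean of at least 5 CPM. Nearest to RFLNA was NEFM, a neurofilament subunit, at a distance of 0.32, with 21.5 and 41.8 CPM in leptin overexpression and 0.681 and 4.18 CPM in WT. It was followed by PTX3, a pentraxin of the cumulus matrix, at 0.69, and by ERO1B, an oxidoreductase of the endoplasmic reticulum, at 0.87. PTX3 was at 639 and 1031 CPM in leptin overexpression, against 28.0 and 134 CPM in WT. ERO1B was at 255 and 939 CPM in leptin overexpression, against 11.8 and 104 CPM in WT. Like RFLNA, all 3 were highest in leptin overexpression replicate 2 and lowest in WT replicate 1.

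Nearest to FLNA were GPRC5C, an orphan receptor (0.096), CD68, a lysosomal protein of macrophages (0.14), and GCNT2, a glycosyltransferase (0.17). CD68 was at 16.9 and 14.5 CPM in leptin overexpression, against 54.4 and 31.2 CPM in WT. Nearest to FLNC were CCN3 (0.45), ANPEP (0.50) and IL2RG (0.51), and nearest to RFLNB were FAM210B (0.053), XK (0.073) and COASY (0.083). ANPEP, a membrane peptidase, was at 5.22 and 4.18 CPM in leptin overexpression, against 26.5 and 20.4 CPM in WT. With 4 libraries many genes share a profile, so these distances only describe the order of the libraries.

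Genes next to the members in the RefSeq gene order of Sscrofa11.1 were read to see whether the differences extended along the chromosome. ZNF664 lies next to RFLNA. ZNF664 was at 164 and 195 CPM in leptin overexpression, against 149.7 and 149.2 CPM in WT (log2 fold change 0.26; edgeR adjusted p = 0.823), without the large difference of RFLNA.

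FLNA lies between EMD and RPL10. EMD, emerin of the nuclear envelope, was at 52.6 and 44.9 CPM in leptin overexpression, against 61.9 and 48.9 CPM in WT. RPL10, a ribosomal protein gene, was at 1768 and 2579 CPM in leptin overexpression, against 1232 and 1258 CPM in WT (edgeR adjusted p = 0.867 and 0.607). FLNC lies between ATP6V1F and CCDC136. ATP6V1F, a proton pump subunit, was at 46.1 and 57.1 CPM in leptin overexpression, against 44.4 and 43.7 CPM in WT. CCDC136 was at 1.31 and 1.94 CPM in leptin overexpression, against 5.76 and 3.94 CPM in WT (log2 fold change -1.58; edgeR adjusted p = 0.524). VPS53 and RPH3AL, beside RFLNB, had log2 fold changes of -0.42 and -0.59 (adjusted p = 0.730 and 0.732). Of these 7 neighbours, 0 passed over all genes.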

How the data were processed

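The deposited expected counts per gene, estimated counts that need not be whole, carry no depth scaling, per the file headers. FPKM, computed by the authors, is relative to transcript length and fragment number, per the file headers. Tools listed without roles, per the submitters' processing notes, were RSEM, HISAT2, edgeR 3.32.0, DESeq2, StringTie 1.3.1, Bowtie2 2.2.8 and fastp 0.18.0; genome build and strand setting were not given in the sources used here. Control columns were taken as WT, by replicate number.

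Counts were rounded, filtered with filterByExpr (13937 of 22309 genes kept), scaled by TMM and tested for genotype by edgeR's quasi-likelihood method with robust dispersion and 2 residual degrees of freedom (R 4.3.3, edgeR 4.0.16, limma 3.58.1). Benjamini-Hochberg adjustment ran over all tested genes, with a threshold of 0.05. Fold changes are leptin overexpression minus WT. A limit of 3 counts, which a count of 0 allows, was 0.136 to 0.224 CPM, for counting error only. The procedure was tested on simulated data.

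The table itself gave symbols for 15153 genes, a gene name table for 664 more and RefSeq for 2222. The members, the 7 pathway lists (180 distinct genes) and 16 marker lists were chosen with earlier results of these data known. Where a symbol had several rows, the most abundant was used. Named genes were the members, list genes past the threshold or most abundant, the largest changes without overlap between the groups among those of at least 5 CPM (up to 2 per direction), the 2 most abundant markers and the 3 nearest profiles. Not every gene so selected is reported here. MYH11, DES, KCNMB1, FERMT1, TNS3, LGI2, LOC100520618 and the neighbouring genes were added after their values were seen.

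The alternatives changed the factors (RLE, upper quartile), the filter (none, or 1 CPM in 2 libraries), the tool (DESeq2 1.42.0, voom, and limma's trend method on log2(FPKM + 1) or log2(FPKM + 0.1)), added the replicate number as a block, or dropped a library.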

Additional observations from a re-analysis of the deposited data

How the results depend on the processing

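The signs of RFLNA, FLNA and FLNC held under every alternative run, and that of RFLNB under all but 1. Without single libraries the log2 fold change ran from 3.16 to 5.65 for RFLNA, from -0.72 to 0.27 for RFLNB, from -1.96 to -1.07 for FLNA and from -2.67 to -2.08 for FLNC; the positive RFLNB value was the fit without WT replicate 2. With limma-trend on log2(FPKM + 1) that of FLNC was -1.40, since the pseudocount is large beside its FPKM.

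Counts of calls over all genes, 4 higher and 0 lower, depended on the tool. They were 7 and 4 with upper-quartile factors, 84 and 168 with no filter, 100 and 205 with DESeq2, 1 and 0 with limma-voom, 70 and 256 with limma-trend on log2(FPKM + 1) and 105 and 413 with log2(FPKM + 0.1). Without single libraries they ran from 0 to 258 higher and from 0 to 423 lower; the lone library of a group takes its spread from the other group. Of the listed pathway genes, 0 and 0 with all libraries, 1 higher and 1 lower passed with no filter, 1 and 2 with DESeq2, 1 and 2 with limma-trend on log2(FPKM + 1), 1 and 7 with log2(FPKM + 0.1), and 0 to 1 higher and 0 to 5 lower without single libraries. The cause of these moves was not tested. With the replicate number as a block, 11 genes were higher and 12 lower; the labels give no pairing, and deviations of same-numbered samples from their group means correlated at -0.10 (-0.0995) over 13937 genes. Depth limits RFLNB, at 57 to 129 counts, and FLNC in leptin overexpression, at 54 and 61 counts, more than the other members.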
